A study of Mus musculus with 6 samples.

Results

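A group of 9 complement and related genes was examined in NOR-10 cells, picked by symbol among the 34745 genes of the deposited table. They encode the central component C3 (C3), a C4 protein (C4b), the proteases of the C1 complex (C1ra and C1s1), factor B (Cfb), factor D (Cfd), the C1 inhibitor (Serping1), decay-accelerating factor (Cd55) and C1q/TNF-related protein 6 (C1qtnf6). The last is grouped here by its C1q-like domain and is not one of the classical complement components. Of the 9 genes, 8 had enough counts to be among the 13407 genes tested, and Cfd, which had no count, did not.

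NOR-10 is a fibroblast line from mouse skeletal muscle, and the control cells received PBS. The D-gal group was kept in D-galactose, a sugar used to induce senescence, at 20 mg/mL for 3 days. RNA-seq was done on 3 libraries per group, and the sources used here do not say whether the 3 are separate cultures, so p-values measure the spread between these libraries. Both groups are the same cell line, grown without the other cell types of muscle. Library totals were 16876087 to 20830349 counts in the control group and 13759108 to 15157064 in the D-gal group, so every D-gal library was the shallower one. Of the 12 fibroblast markers, Pdgfra, Pdgfrb, Col1a1, Col1a2 and Vim were abundant, Lum had 1 count in all libraries together and Fap at most 5 per library. The summed fibroblast markers were 7716 to 7925 CPM in the control group and 5068 to 5372 in the D-gal group. CPM here means counts-per-million of the TMM-scaled library size over the genes tested. At an edgeR adjusted p under 0.05, 7 of the 10 tested fell and 1 rose, beside 17.8% and 16.9% of all genes tested. Macrophage markers summed to 82.5 CPM in control replicate 1 and to 27.3 to 48.4 in the other libraries. Of the 4 tested, Cd14 rose (log2 fold change 0.62, edgeR adjusted p = 0.0329) and supplied most of the sum in the D-gal libraries. Cd68, Csf1r and Lyz2 had lower means under D-gal (log2 fold changes -0.61, -1.45 and -1.95) without passing the threshold. Endothelial markers summed to 4.52 to 5.40 in the control group and 3.09 to 3.38 in the D-gal group. Epithelial markers summed to 7.20 to 8.73 and 1.76 to 2.87, with Epcam at 0. Most of the epithelial sum came from Cdh1, with 141, 142 and 140 counts in the controls against 37, 26 and 33 under D-gal. The part of these marker levels in the results below was not tested. Of the hepatocyte markers 0 were tested, with Ttr, Serpina1a and Fgb at 0, and the summed myogenic markers were 7.68 to 7.94 CPM in the control group and 6.02 to 6.25 in the D-gal group. Of the myogenic list Pax7, Myf5 and Myod1 had no count, while Des (26 to 67 counts, lower at an edgeR adjusted p = 0.00898), Acta1 (27 to 50) and Tnnt3 (31 to 45) were tested.

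Complement is a cascade of plasma proteins that tags surfaces for removal. In the classical pathway, C1r and C1s in the C1 complex cleave C4 and C2, in the alternative pathway factor D cleaves factor B bound to C3b, and both routes converge on the cleavage of C3. Liver makes most of the circulating proteins, while fibroblasts make several of them locally. Serping1 inactivates C1r and C1s, and Cd55 speeds the decay of the convertases on the cell's own membrane.

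The start region of C3 is shown because C3 was the most highly expressed member that fell, and that of Cd55 because it fell by a similar amount. Each line gives the 250 bases before the RefSeq start on the minus strand of GRCm38.p6, at chr17:57228137-57228386 for C3 and chr1:130462745-130462994 for Cd55. Capitals mark a match to a C/EBP-like motif, TTGCNNAA on either strand.
C3: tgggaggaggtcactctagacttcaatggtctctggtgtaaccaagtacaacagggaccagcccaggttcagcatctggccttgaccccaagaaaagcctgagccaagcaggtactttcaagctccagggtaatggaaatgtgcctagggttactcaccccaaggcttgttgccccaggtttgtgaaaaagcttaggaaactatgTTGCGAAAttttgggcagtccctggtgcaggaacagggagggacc
Cd55: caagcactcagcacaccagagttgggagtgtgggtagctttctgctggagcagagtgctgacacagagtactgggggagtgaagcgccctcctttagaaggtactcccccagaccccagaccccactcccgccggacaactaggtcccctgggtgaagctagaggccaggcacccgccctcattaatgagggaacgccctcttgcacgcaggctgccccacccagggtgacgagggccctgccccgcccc
The C3 region held 1 match, which begins 45 bases before the start, and the Cd55 region held none. Of all 32817 start regions of this length, 9.57% held the motif. RefSeq start regions were at hand for 6 of the 9 members (C3, C1ra, C1s1, Cfd, Cd55 and C1qtnf6), and of the others 1 of the 2 start regions of C1s1 held the motif. A GAS-like motif (TTCNNNGAA), an ISRE-like motif (GAAANNGAA) and an NF-kB-like motif (GGGNNTTTC) were not present in these 6, against 7.01%, 7.12% and 3.72% of all regions.

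Several members have near copies, and reads from shared stretches can be credited to either gene. Of the words of 31 bases in the annotated C4b transcripts, 48.3% also occur in C4a, its neighbour on chromosome 17. A coding stretch of 60 bases is shown for both because, of the stretches with 15 identical bases at each end, it holds the most differences, 8, marked by capitals. It lies on the minus strand of GRCm38 at chr17:34733671-34733730 in C4b and at chr17:34814333-34814392 in C4a.
C4b: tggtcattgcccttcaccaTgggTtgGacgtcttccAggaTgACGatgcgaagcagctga
C4a: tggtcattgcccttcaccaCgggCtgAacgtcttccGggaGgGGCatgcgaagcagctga
Cfb shares 75.5% of its words with Gm20547, an annotated gene on the same strand that covers 2246 of the 2825 exon bases of Cfb and reaches into the neighbouring region of C2. C1ra shares 56.9% with C1rb, C1s1 shares 33.5% with C1s2 and Cd55 shares 11.2% with Cd55b. On the other strand, C1s1 overlaps Gm16567, Cd55 overlaps Gm16083 and C1qtnf6 overlaps Gm49490, the last over 117 bases. C3, Cfd and Serping1 share no word with another gene and overlap no other exon. How reads shared by copies on the same strand were assigned is not given in the sources used here. The use of strand in counting, which bears on the overlaps on the other strand, is not given either. The members with copies or overlaps are uncertain to that degree.

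The members covered a wide range of levels. Per length, as CPM per kilobase of merged exons, the control means ran from C1s1 with 92.1 ± 36.4 (SD, n = 3) over C3 with 60.7 ± 2.61, C1ra with 30.9 ± 0.735, C1qtnf6 with 10.8 ± 0.679, Cd55 with 3.02 ± 0.0486 and Serping1 with 1.60 ± 0.323 to C4b with 0.170 ± 0.0322 and Cfb with 0.108 ± 0.0747. The control libraries of C1s1 (68.9 to 134) all lay above those of C3 (57.9 to 63.1), with means apart by less than the SD of C1s1. In the deposited FPKM values the controls of C1s1 (41.7 to 80.8) and C3 (51.9 to 56.4) overlapped. By merged exons the controls of C4b and Cfb overlapped. In the deposited FPKM values the controls of C4b (0.122 to 0.179) lay above those of Cfb (0.0247 to 0.110). In the D-gal group C3 averaged 35.6 ± 3.53 and C1ra 29.9 ± 1.04 (SD, n = 3), whose libraries did not overlap on this scale. With the authors' gene lengths, the deposited FPKM values of C3 (29.7 to 35.9) and C1ra (29.3 to 31.5) overlapped there. Cd55 and Serping1 moved close together there, at 1.79 ± 0.0509 and 1.68 ± 0.0808 (SD, n = 3), and Cfb lay above C4b. C4b and Cfb were near the lower end of what was counted.

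**Figure D1:**
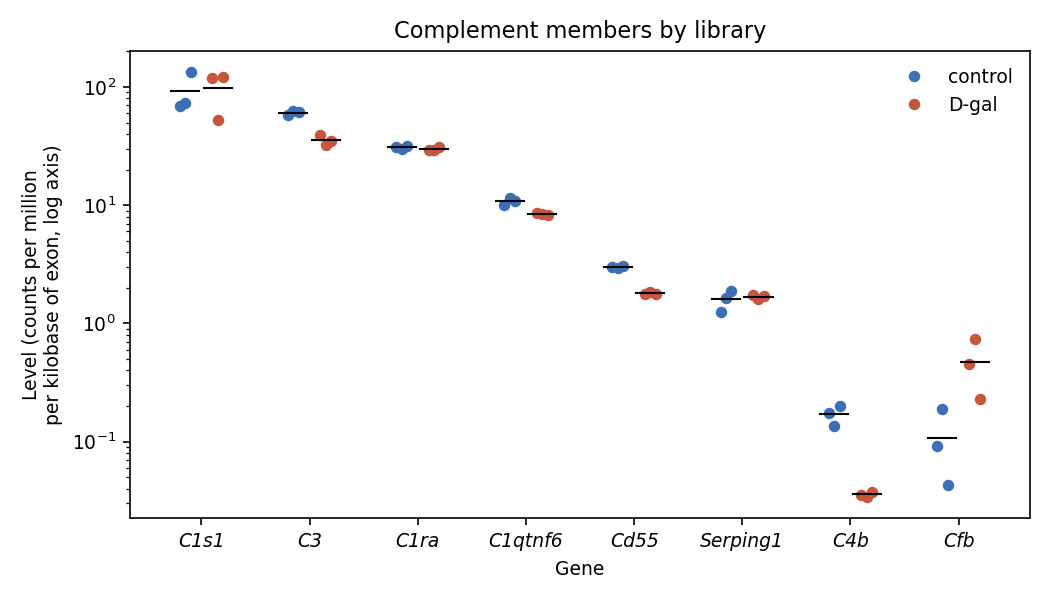
Level of the 8 members with counts in each library, as CPM per kilobase of merged exons on a log axis; points are libraries (blue control, red D-gal) and black lines are group means. C3, Cd55, C1qtnf6 and C4b are lower in all D-gal libraries, the libraries of C1s1 are spread widely within both groups, and Cfd is left out because it had 0 counts.

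Of the 8 members tested, 4 fell and 1 rose at an adjusted p-value under 0.05 (edgeR's quasi-likelihood test, Benjamini-Hochberg adjusted over all genes). Among all genes tested, 17.8% fell and 16.9% rose at that threshold. One of the falls (C4b) and the rise (Cfb) came from genes that passed the filter on low counts only through the group in which they were higher, and with at least 10 counts required in every library 3 members were called. C4b and Cfb were also the members past a log2 fold change of 1 in size, and for the same reason nothing is read from their number against the 4.21% of all genes past both thresholds. The groups did not overlap in 5 of the 8 members, C4b and Cfb among them, and in 49.1% of all genes tested. For the same reason nothing is read from this number. The median log2 fold change of the 8 was -0.20, and that of all genes tested 0.0036. In a bulk sample, fewer cells expressing a gene and less RNA per cell cannot be told apart.

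C3 (ENSMUSG00000024164, GRCm38 chromosome 17, 57203970 to 57228136, minus strand), the protein on which all pathways converge, has 42 merged exons. Its counts were 5734, 6672 and 5221 in the controls against 3027, 2556 and 2524 under D-gal. Normalised, the controls had 4997, 5444 and 5272 counts and the D-gal libraries 3397, 2791 and 3041. The 3 D-gal libraries all lay below the 3 control libraries. The mean fell from 5238 ± 226 to 3077 ± 304 normalised counts (SD, n = 3), which is a log2 change of -0.77 (standard error 0.07, 95% interval -0.93 to -0.61, edgeR adjusted p = 1.3e-04). The level of C3 decreased by 41.3%, and the gene ranked 415 by p-value among the 13407 genes. A two-sided exact permutation test gave p = 0.1, the smallest that 10 splits of 3 against 3 allow. With a replicate left out, the log2 fold change of C3 lay between -0.85 and -0.70.

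Cd55 (ENSMUSG00000026399, chromosome 1, 130439027 to 130462744, minus strand), which protects the cell's own surface, fell by nearly the same proportion. Its counts were 282, 296 and 247 in the controls against 128, 138 and 119 under D-gal. The normalised counts were 246 ± 3.96 and 146 ± 4.14 (SD, n = 3), and the control libraries had a coefficient of variation of 1.61%. The log2 fold change was -0.75 (standard error 0.09, 95% interval -0.95 to -0.55, edgeR adjusted p = 4.2e-04). Its near copy Cd55b had no count in any library, so adding both genes together left the value as it was.

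C1qtnf6 (ENSMUSG00000022440, chromosome 15, 78523346 to 78529625 in the deposited table, minus strand), a secreted protein with a collagen-like stretch and a C1q-like domain, fell by less. It had 524, 634 and 491 counts in the controls against 347, 348 and 314 under D-gal. The normalised counts of 490 ± 30.8 and 383 ± 5.97 (SD, n = 3) did not overlap. The log2 fold change was -0.36 (standard error 0.07, 95% interval -0.52 to -0.19, edgeR adjusted p = 0.00580). The level decreased by 21.9%.

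The remaining 2 members past the threshold, C4b and Cfb, rested on few counts and share sequence with another gene. C4b (ENSMUSG00000073418, chromosome 17, 34728380 to 34743882, minus strand), which is cleaved by C1s, had 19, 16 and 19 counts in the controls against 3 in each D-gal library. Summed over the groups, 54 counts stood against 9, a ratio of 0.218 once divided by the library totals (exact 95% interval 0.0945 to 0.445, covering counting error only). The fitted log2 fold change was -2.20 (standard error 0.38, edgeR adjusted p = 0.00319). C4a, which shares much of its sequence, had 39, 53 and 36 counts in the controls against 40, 56 and 47 under D-gal (log2 fold change 0.51, edgeR adjusted p = 0.0769). The sums of both genes, 58, 69 and 55 against 43, 59 and 50 counts, overlapped between the groups after normalisation. For the sum the log2 fold change was 0.09 (95% interval -0.30 to 0.48, edgeR adjusted p = 0.717), a fit added after the data had been seen. The fall of C4b was thus seen in the counts credited to C4b and not in those of the C4 pair.

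Cfb (ENSMUSG00000090231, chromosome 17, 34856374 to 34862518, minus strand), the protease of the alternative pathway's C3 convertase, had 5, 11 and 2 counts in the controls against 19, 32 and 9 under D-gal. Of its libraries, control replicate 2 and D-gal replicate 3 lay closest to each other, at 8.98 and 10.8 normalised counts. The fitted log2 fold change was 2.06 (standard error 0.58, 95% interval 0.73 to 3.39, edgeR adjusted p = 0.0265). The call was lost when any of 4 libraries was left out, namely control replicate 1 (adjusted p = 0.0788), control replicate 3 (0.0710), D-gal replicate 1 (0.0587) or D-gal replicate 2 (0.0999), each from the same edgeR test. Gm20547, whose exons cover most of Cfb, went the other way (log2 fold change -1.98, edgeR adjusted p = 0.00361). It had 53, 52 and 43 counts in the controls against 6, 7 and 16 under D-gal. Like Cfb, Gm20547 passed the filter on low counts only through the group in which it was higher. Added together, Cfb and Gm20547 had 58, 63 and 45 counts in the controls against 25, 39 and 25 under D-gal, and here every D-gal library was below every control library after normalisation. The log2 fold change of the sum was -0.55 (95% interval -1.03 to -0.06, edgeR adjusted p = 0.0785), opposite in direction to Cfb alone and not past the threshold. How the counting divided reads between the overlapping genes was not tested. With both sums in place of the single genes, the members called numbered 3 (C3, Cd55 and C1qtnf6), all lower, and 0 of them passed the fold change criterion.

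**Figure D2:**
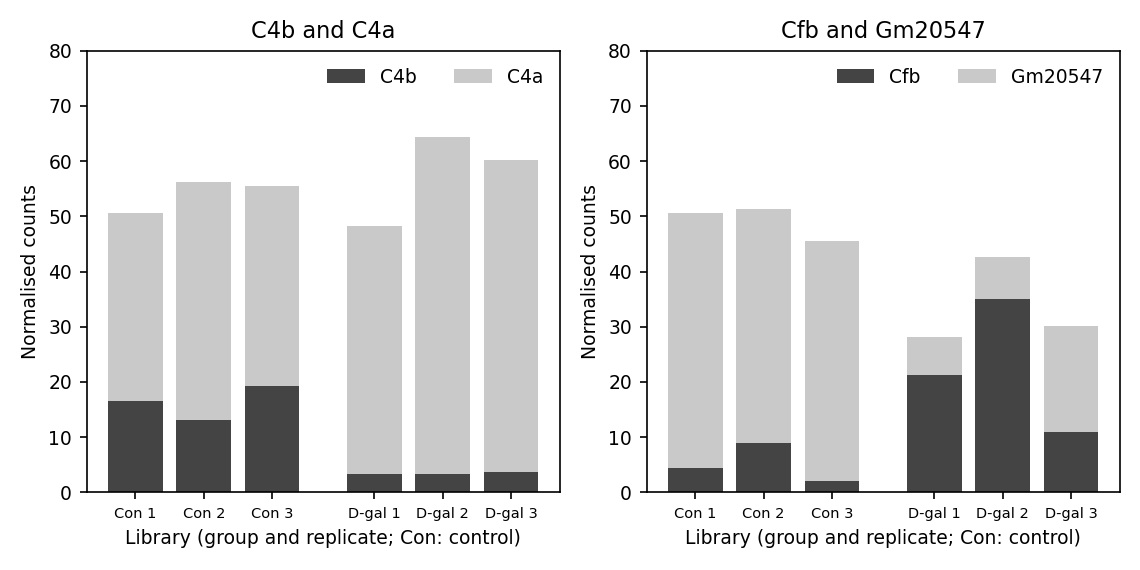
Normalised counts per library of C4b stacked with C4a (left) and of Cfb stacked with Gm20547 (right), from 3 control and 3 D-gal libraries. The dark part shrinks for C4b and grows for Cfb under D-gal, while the whole C4 bars overlap between groups and the whole Cfb and Gm20547 bars are lower in the D-gal group.

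The proteases of C1 and their inhibitor did not pass the test. C1ra (ENSMUSG00000055172, chromosome 6, 124512405 to 124523443, plus strand), which activates C1s, had 1773, 1848 and 1566 counts in the controls against 1298, 1350 and 1290 under D-gal. Its normalised counts of 1545 ± 36.8 and 1495 ± 52.1 (SD, n = 3) overlapped, with a log2 fold change of -0.05 and a 95% interval of -0.15 to 0.05 (edgeR adjusted p = 0.436). C1rb, the near copy of C1ra, had 4 to 9 counts per library, so adding it changed the interval little, to -0.14 to 0.06.

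C1s1 (ENSMUSG00000038521, chromosome 6, 124530345 to 124542359, minus strand), which encodes the protease that cleaves C4 and C2, lies next to C1ra on the opposite strand. It had 4154, 4711 and 6970 counts in the controls against 5540, 2507 and 5332 under D-gal. After normalisation control replicate 3, D-gal replicate 1 and D-gal replicate 3 lay between 6217 and 7039, and the other 3 libraries between 2738 and 3844. Each group therefore held libraries of both kinds, and the highest was 1.94 times the lowest in the control group and 2.35 times in the D-gal group. Among the 4076 genes with a mean of at least 1000 normalised counts, 19 spread by at least 1.9 times in both groups, C1s1 included. The cut of 1.9 lies just below the control value of C1s1, so the inclusion of C1s1 was fixed by the cut. The log2 fold change of 0.09 had a 95% interval from -0.72 to 0.89 (edgeR adjusted p = 0.877), so neither a rise nor a fall could be detected. The ratio of C1s1 to C1ra per length was 2.23, 2.43 and 4.24 in the controls against 4.07, 1.77 and 3.94 in the D-gal libraries.

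Serping1 (ENSMUSG00000023224, chromosome 2, 84765387 to 84775444, minus strand), the serpin that blocks C1r and C1s, had 56, 79 and 73 counts in the controls against 61, 57 and 55 under D-gal. The normalised counts of 62.3 ± 12.6 and 65.7 ± 3.15 (SD, n = 3) overlapped, and the log2 fold change was 0.08 (95% interval -0.34 to 0.50, edgeR adjusted p = 0.775). Per length, the inhibitor stood at 0.0114 to 0.0160 of the summed C1 proteases in the controls and at 0.0111 to 0.0195 in the D-gal libraries. The mRNA of the proteases thus exceeded that of their inhibitor by 51.2 to 90.3 times in every library, and by 46.9 to 76.0 times in the deposited FPKM values. The ratio of Cfb to C3 per length lay between 7.0e-04 and 0.0030 in the controls and between 0.00649 and 0.0228 under D-gal, without overlap, and carries the uncertainty of Cfb given above.

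Cfd (ENSMUSG00000061780, chromosome 10, 79890853 to 79892656, plus strand), the protease that activates factor B and is also known as adipsin, had 0 counts in all 6 libraries. This allows up to 0.144 to 0.218 CPM in a library, taking 3 counts as the limit and counting error only. Cfd was therefore not detectable in these cells at this depth.

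**Figure D3:**
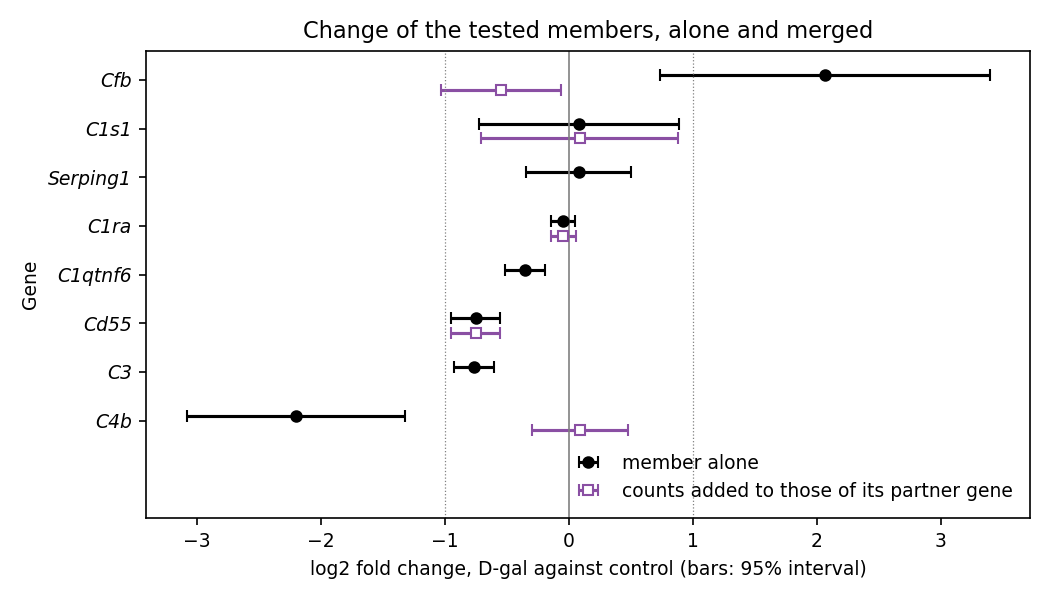
Log2 fold change under D-gal relative to control for the 8 tested members, with 95% intervals from edgeR (filled circles), and for 5 members with the counts of the gene sharing most of their sequence added (open squares). C3, Cd55 and C1qtnf6 lie below 0, whereas C4b and Cfb move to 0.09 and -0.55 when merged; dotted lines mark a change of 1.

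A list of 50 other complement genes gave the surroundings of the members. It has 52 rows in the table, because C1s2 and Itgam have 2 identifiers each, 10 rows had no count and 17 were tested. Of the 17, 3 rose and 4 fell at an adjusted p-value under 0.05, beside 16.9% and 17.8% of all genes tested. Their median log2 fold change was 0.02. C1qa, C1qb, C1qc, C6, C7, C8a, C8b, C9 and Cfi had at most 3 counts in any library. Of the other terminal components, Hc, which encodes C5, had 0 to 11 counts and C8g, a subunit of C8, had 4 to 16, with a log2 fold change of 0.72 (edgeR adjusted p = 0.362).

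Of the 3 membrane regulators tested on the list, 2 rose and 0 fell, beside 16.9% and 17.8% of all genes tested. The member Cd55 fell. Cd46, a cofactor for the cleavage of C3b and C4b, was the single gene of the list past the fold change criterion. It had 31, 43 and 29 counts in the controls against 45, 64 and 66 under D-gal, a log2 fold change of 1.12 (standard error 0.22, edgeR adjusted p = 0.00606). It overlaps A330023F24Rik on the other strand, with which it shares 13.8% of its words. Cd59a, which blocks the terminal pore, had 115, 106 and 96 against 200, 121 and 149 counts, a log2 fold change of 0.92 (standard error 0.19, edgeR adjusted p = 0.00768). Cr1l, the rodent regulator Crry, had a log2 fold change of -0.09 (edgeR adjusted p = 0.385).

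Of the 5 receptors and binding proteins tested, 3 fell (Megf10, Cd93 and Calr) and 0 rose, beside 17.8% and 16.9% of all genes tested. Megf10, a phagocytic receptor that binds C1q, had 603, 618 and 523 counts in the controls against 337, 286 and 267 under D-gal, a log2 fold change of -0.62 (standard error 0.09, edgeR adjusted p = 0.00102). Cd93, a membrane protein first described as a C1q receptor, had 444, 409 and 336 against 233, 198 and 210 counts, a log2 fold change of -0.54 (standard error 0.10, edgeR adjusted p = 0.00513). In both genes no D-gal library reached a control library after normalisation, while 49.1% of all genes tested had no overlap in either direction. Cfp and Masp1 are named after their values were seen, as the soluble genes past the threshold. Cfp, which stabilises the alternative convertase, had 86, 79 and 79 against 34, 41 and 23 counts (log2 fold change -0.97, edgeR adjusted p = 0.00775). Masp1, a protease of the lectin pathway, had 817, 954 and 703 against 721, 875 and 716 counts (log2 fold change 0.26, edgeR adjusted p = 0.0304).

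The relatives of C1qtnf6 divided by gene. Of the 13 C1q/TNF-related genes listed, 4 were tested, 2 rose and 1 fell, beside 16.9% and 17.8% of all genes tested. C1qtnf3 had 196, 205 and 148 against 206, 215 and 166 counts (log2 fold change 0.45, edgeR adjusted p = 0.0133). C1qtnf1, lower like C1qtnf6, had 545, 539 and 400 against 337, 330 and 272 counts (log2 fold change -0.31, edgeR adjusted p = 0.0294). C1qtnf1 overlaps Gm11747 on the other strand, with which it shares 19.9% of its words. C1ql3 had 14 to 31 counts per library and a log2 fold change of 0.91 (edgeR adjusted p = 0.0242), but 62.8% of its words occur in genes on the other strand. The median log2 fold change of the 4 was 0.30.

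Genes of cytokine signals known to act on complement genes were examined as mRNA, which does not measure the activity of the signals. Of the 24 genes listed, 19 were tested, 9 fell and 0 rose, beside the 17.8% and 16.9% of all genes tested. Their median log2 fold change was -0.21. Il6ra, the receptor for interleukin-6, had 562, 547 and 459 counts in the controls against 245, 248 and 218 under D-gal, a log2 fold change of -0.79 (standard error 0.07, edgeR adjusted p = 1.3e-04). Cebpb, a transcription factor downstream of that receptor, had 2665, 2480 and 2123 against 1366, 1400 and 1257 counts, a log2 fold change of -0.50 (standard error 0.05, edgeR adjusted p = 2.6e-04). Cebpb overlaps Tmem189 on the opposite strand, with 19.2% of its words in common. Osmr, the oncostatin M receptor, fell less, by 0.27 on the log2 scale (standard error 0.04, edgeR adjusted p = 0.00118). Ifngr1, Ifngr2, Socs3, Tnfrsf1a, Il1r1 and Nfkb1 made up the other genes that fell. The ligands Ifng, Osm, Il1a, Il1b and Tnf had at most 7 counts in a library. The ligand Il6 had 79, 74 and 77 counts in the controls against 44, 32 and 48 under D-gal (log2 fold change -0.54, edgeR adjusted p = 0.0839). Its groups did not overlap after normalisation, which held for 49.1% of all genes tested.

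**Figure D4:**
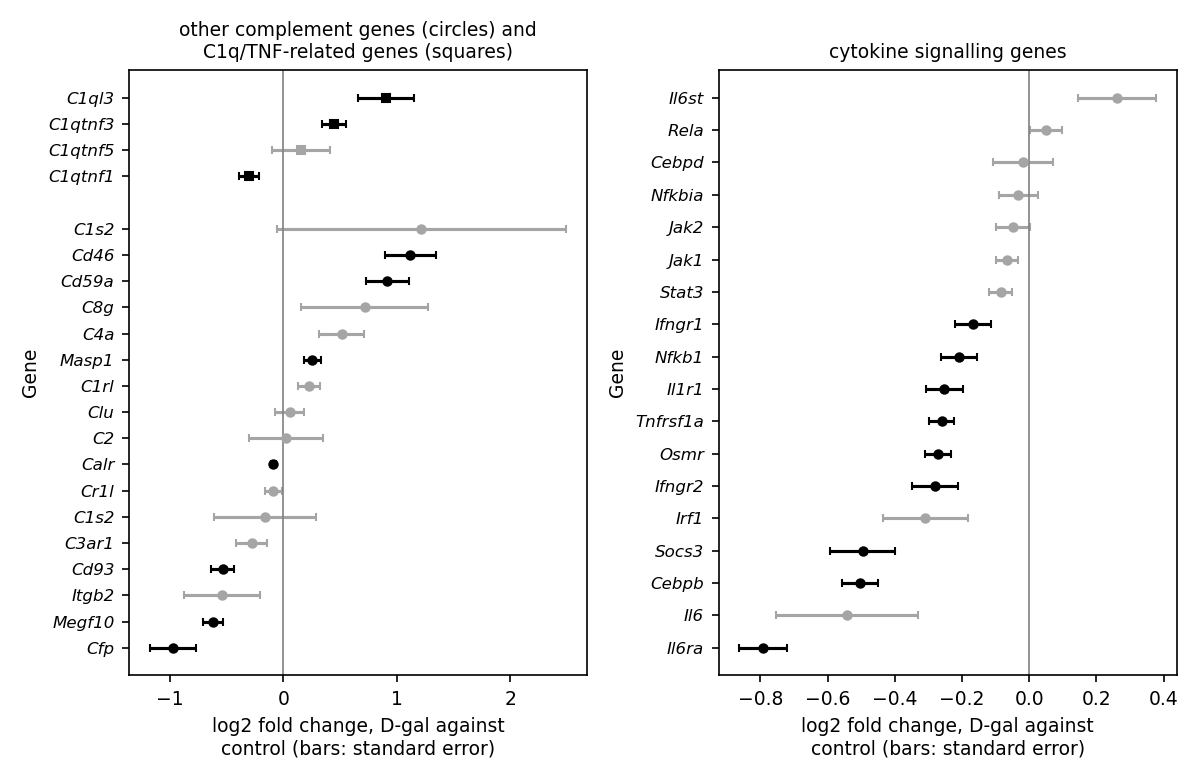
Log2 fold change with its standard error for the tested genes of the other complement list and the C1q/TNF-related list (left) and for those plotted of the cytokine signalling list (right), black where the edgeR adjusted p-value was under 0.05 and grey otherwise; C1s2 appears once per identifier. Cd46 and Cd59a are the highest of the black circles, Cfp the lowest, and all black genes on the right lie below 0.

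The genes most like each member that passed the test were found by the smallest root mean square difference of centred log2 normalised counts over the 6 libraries, among 10412 tested genes with a mean of at least 100 counts. For C3 these were Emp2 (0.02) and Ugcg (0.03), for Cd55 Fam64a (0.03) and Impa2 (0.04), and for C1qtnf6 Rad9a (0.01) and Nptxr (0.02). C4b came closest to Anxa8 (0.17) and Mgp (0.21), and Cfb to Scube3 and Tfdp2, both at 0.66. C4b had 3 to 19 counts per library and Cfb 2 to 32, so counting error enters their distances and nothing is read from the size of these. The libraries shared by all genes and the contrast between the groups enter every one of these values.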

How the data were processed

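RNA-seq libraries of NOR-10 cells (3 control and 3 D-gal, grouped and numbered by their titles) were taken as deposited. The labels name an RNA-seq library kit and the paper's methods a small RNA kit, and which was used is not settled by the sources used here. For each gene the authors gave a raw count per library and an FPKM value, for which they divided by a gene length of their own. Reads were quality-checked and trimmed per the paper's methods, and HISAT2 (version 2.0.4) is listed in the submitters' processing notes. The counting tool, annotation and use of strand are not given in the sources used here. Differential expression was computed with edgeR 4.0.16 (R 4.3.3) over the whole table, with TMM scaling, its filterByExpr filter and quasi-likelihood F tests, p-values being Benjamini-Hochberg adjusted. Standard errors are the log2 fold change over the square root of F. Normalised counts are counts scaled to the mean TMM library size. Lengths, overlaps and shared words of 31 bases came from GENCODE M21 (GRCm38), which holds 34344 of the 34745 identifiers, and start regions from RefSeq (GRCm38.p6). Alternatives used DESeq2 1.42.0, limma 3.58.1 on the FPKM values, other scalings and filters, a replicate block, thinned counts and each replicate left out, and, added after the data were seen, counts merged with a partner gene. On simulated data for this comparison, edgeR recovered 195 of 200 genes changed 2-fold among 13259 tested. The changed genes were drawn from those with more than 200 counts in total, and all genes were given the same variation beyond counting error. The simulation therefore does not cover genes with counts as low as C4b and Cfb or a spread as wide as that of C1s1.

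Replicates differed by more than counting error (chi-square over its degrees of freedom 6.00 to 9.42). The members and lists were chosen with earlier results of these data known. Named were all 9 members, and from each list every gene past both thresholds and the next 3 by p-value, besides those noted as chosen later. A gene of the cytokine signalling list is not reported here by name and is left out of its plot.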

Additional observations from a re-analysis of the deposited data

How the results depend on the processing

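Direction and call of C3 (log2 fold change -0.85 to -0.70), Cd55 (-0.78 to -0.46) and C1qtnf6 (-0.41 to -0.27) were kept under all alternatives run, as was the absence of a call for C1ra. The cause of the changes below was not tested unless the construction shows it. With C4b added to C4a its log2 fold change was 0.091, and with Cfb added to Gm20547 it was -0.55. Cfb lost its call under limma on log2(FPKM + 1), at 0.26, a scale that understates low genes. With a replicate left out, it ranged from 1.59 to 2.74, C4b from -2.34 to -2.07, C1s1 from -0.11 to 0.46 and Serping1 from -0.070 to 0.21, so both of the last changed sign without ever being called. The 5 members called became 3 with at least 10 counts in every library, 3 in thinned counts (both drop C4b and Cfb from the test) and 3 when merged. The 2 past the fold change criterion became 0 under these same settings and under log2(FPKM + 1), 1 under log2(FPKM + 0.1), and 1 to 2 with a replicate left out. All genes past that criterion numbered 564 and, under log2(FPKM + 1), 120. The single other complement gene past it became 0 in thinned counts and under both FPKM scales, and 0 to 3 with a replicate left out. The C1q/TNF-related genes called ranged from 1 to 3, and those past the fold from 0 to 1, with a replicate left out. The ratio of C1s1 to C1ra in the control group was 2.97 by merged exons and 1.82 by the deposited FPKM values. Same-numbered libraries did not deviate together (correlations -0.014, -0.007 and 0.026), and the replicate block left 530 genes past both thresholds and 5 members called, with C3 at -0.77. C4b, Cfb and Cfd lie at the lower end of what these libraries count.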

Other observations

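C1s1 was high in control replicate 3, D-gal replicate 1 and D-gal replicate 3. The 2 genes nearest to C1s1 by the same measure of likeness on normalised counts, chosen after the values were seen, were Slirp and Tnpo1. Tnpo1, which encodes a nuclear import receptor, had 3210, 3938 and 6313 counts in the controls against 5599, 3012 and 4779 under D-gal. Slirp, which encodes a mitochondrial RNA-binding protein, had 296, 273 and 369 counts in the controls against 323, 186 and 296 under D-gal. Their distances from C1s1 were 0.20 and 0.18 on the log2 scale, and neither passed the test between the groups (edgeR adjusted p = 0.519 and 0.762). C1s2, the near copy of C1s1, has 2 identifiers, of which one had 39, 0 and 0 counts in the controls against 38, 34 and 0 under D-gal.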
